A study of Mus musculus with 6 samples.

Results

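De novo lipogenesis is the making of fatty acids from non-lipid carbon, and 9 of its genes were examined in differentiated primary brown adipocytes of WT and Ucp1-KO mice. They were the enzyme genes Acly, Acss2, Acaca, Acacb, Fasn and Me1, the transcription factor genes Srebf1 and Mlxipl, and Thrsp. The genes were picked for their role in this route, with earlier results of these data known. The RefSeq transcript used for each was chosen by its mean RPKM over the 6 cultures, the highest being taken. The levels are therefore a description, whereas this choice did not use the genotype. It mattered for Acly and Me1, whose second RefSeq transcripts had means of 274 and 179 RPKM. The 9 genes belonged to 22466 genes with RefSeq transcripts in the deposited table, and all 9 had a mean above 0.5 RPKM, the minimum for the comparison of genotypes.

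Within a study of substrate fluxes, RNA sequencing served to compare brown adipocytes with intact and with inactivated Ucp1, the gene of the uncoupling protein of brown fat mitochondria. RNA was sequenced from 3 WT cultures (replicates 10, 11 and 12) of 129SvEvS1 mice and 3 Ucp1-KO cultures (replicates 13, 14 and 15) with the genotype UCP1(-/-) on the same strain background. Precursor cells of the stromal-vascular fraction of interscapular brown fat from young male mice were made into adipocytes in the dish with isobutylmethylxanthine, indomethacin, dexamethasone, insulin, triiodothyronine and rosiglitazone, and were then kept in insulin, triiodothyronine and rosiglitazone, so that every culture of both genotypes had received insulin and thyroid hormone. The cultures were treated as independent, and the p-values below cover only the spread between these cultures. The knockout allele still gives a remnant Ucp1 transcript, and a dish of this kind can hold stromal and immune cells besides adipocytes.

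In de novo lipogenesis, citrate exported from mitochondria is split into acetyl-CoA, acetyl-CoA is carboxylated to malonyl-CoA, and fatty acid synthase joins these units into palmitate with the reducing power of NADPH. Insulin acts on the genes of this route mainly through SREBP1c and glucose through ChREBP, and thyroid hormone raises several of them. In brown fat the route is known to run beside fatty acid oxidation, above all during cold acclimation.

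Abundance was given in RPKM, read numbers per length of transcript and per mapped reads, which allows levels to be compared between genes. Ucp1 reached 1775, 981 and 1157 RPKM in the WT cultures and 307, 409 and 398 RPKM in the Ucp1-KO cultures, so that the cultures matched their genotype labels. The values rested on 14989604 to 17727652 reads per culture, computed from the steps of the RPKM values. The fewest reads behind any value of the 9 genes were 710, for Mlxipl in WT replicate 11. All 8 adipocyte markers were above 0 in every culture, with a summed level of 30600 to 32580 RPKM in WT and 32040 to 33730 RPKM in Ucp1-KO cultures. All 8 markers of brown adipocytes were also present, with sums of 1814, 1839 and 2031 RPKM in WT and 1680, 2212 and 2700 RPKM in Ucp1-KO cultures. Other cell types were represented as well. The 10 markers of preadipocytes and stroma summed to 744.5, 1707 and 1033 RPKM in WT and to 1004, 924 and 630.5 RPKM in Ucp1-KO cultures, and 9 of 9 tested had a negative log2 fold change (Ucp1-KO over WT, on log2(RPKM + 1)), with a median of -0.52 and 0 past the test. The 6 macrophage markers summed to 20.9, 57.4 and 36.2 RPKM in WT and to 40.5, 168 and 12.9 RPKM in Ucp1-KO cultures. The 5 endothelial markers summed to 2.32 to 28.2 RPKM and the 5 markers of skeletal muscle to 2.52 to 12.1 RPKM over the 6 cultures, where Ckm, Myh4, Tnnt3 and Myog were each at 0 in 1 or more WT cultures. In such cultures, fewer cells of a type and less RNA per cell cannot be told apart.

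Lipogenic transcripts were abundant in both genotypes. Together the 9 transcripts reached 3069, 1807 and 1994 RPKM in WT replicates 10, 11 and 12 and 4061, 2772 and 1818 RPKM in Ucp1-KO replicates 13, 14 and 15. This corresponded to 1.35%, 0.797% and 0.861% of all reads in WT and to 1.85%, 1.21% and 0.654% in Ucp1-KO cultures. The highest and the lowest share therefore both came from Ucp1-KO cultures. By mean level over the 6 cultures, Thrsp (1061 RPKM) stood before Fasn (628 RPKM), Acly (275.5 RPKM), Acss2 (196 RPKM), Me1 (185 RPKM), Srebf1 (109 RPKM), Acacb (74.6 RPKM), Acaca (32.2 RPKM) and Mlxipl (25.8 RPKM). Thrsp took place 20 and Fasn place 44 among the RefSeq genes ranked by mean abundance, whereas Acaca and Mlxipl took places 1785 and 2209. Of the 8 neighbouring pairs in this order, the ranges over cultures were separate for only 2, Me1 over Srebf1 and Srebf1 over Acacb. Thrsp exceeded Fasn, and Fasn exceeded Acly, within each of the 6 cultures even though their ranges overlapped. Acss2 and Me1 could not be ordered, as Acss2 was higher in 4 of 6 cultures and their means over the Ucp1-KO cultures had the opposite order.

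**Figure D1:**
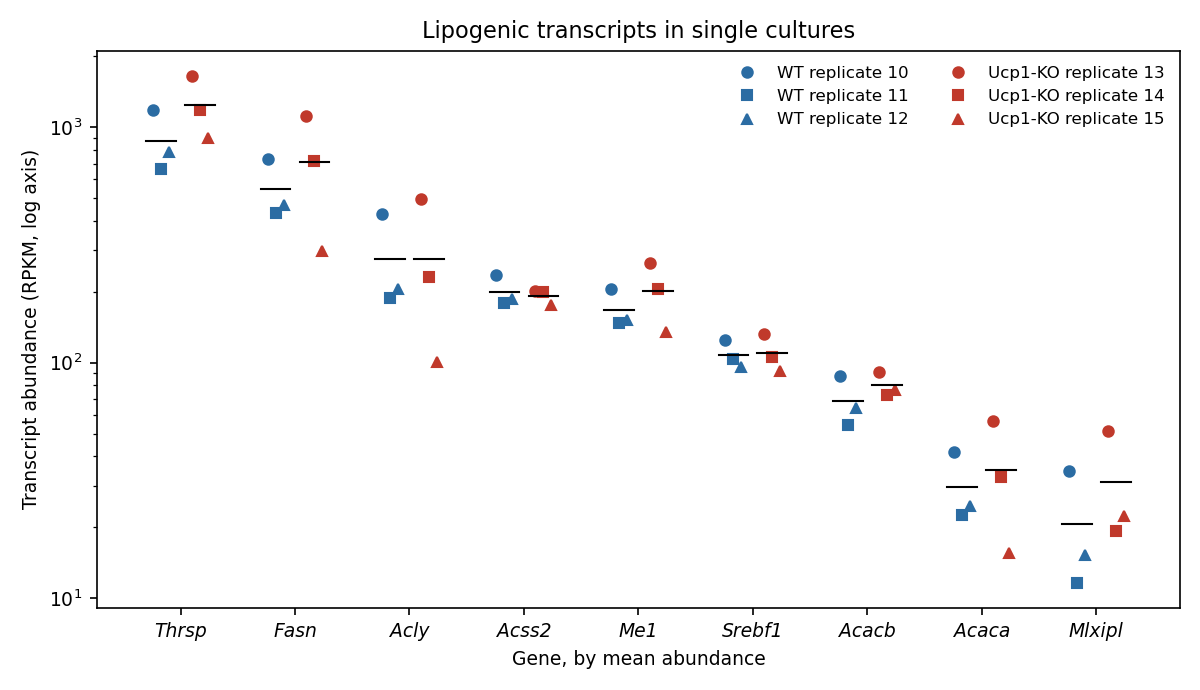
Transcript abundance in RPKM on a log axis for the 9 lipogenic genes, ordered by mean, with one point per culture (blue, 3 WT cultures; red, 3 Ucp1-KO cultures) and a black line for the mean of each genotype. The genotypes overlap in each of the 9 genes, and the points of Acly, Fasn, Acaca and Mlxipl lie far apart within a genotype.

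The RefSeq start regions of Fasn, Acly and Mlxipl, all with a wide range between cultures, are shown beside that of Srebf1, whose range was narrow, as these are the sequences on which the lipogenic factors are known to act. Each is the stretch of 250 bases before a RefSeq transcript start on GRCm38.p6, read 5′ to 3′ on the strand of the gene, and in none of them did GENCODE M21 place an exon base. Capitals mark the CCAAT box (CCAAT), the GC box (GGGCGG) and the E-box (CACGTG) on either strand, so that they also appear as ATTGG and CCGCCC. In Fasn, one CCAAT box and the last ATTGG share bases.
Fasn, chr11:120824548-120824797, minus strand: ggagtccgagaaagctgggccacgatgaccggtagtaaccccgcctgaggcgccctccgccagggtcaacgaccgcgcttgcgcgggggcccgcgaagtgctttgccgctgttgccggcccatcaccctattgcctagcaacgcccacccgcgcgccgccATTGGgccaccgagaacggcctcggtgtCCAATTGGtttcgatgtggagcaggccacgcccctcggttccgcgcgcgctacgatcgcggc
Acly, chr11:100528001-100528250, minus strand: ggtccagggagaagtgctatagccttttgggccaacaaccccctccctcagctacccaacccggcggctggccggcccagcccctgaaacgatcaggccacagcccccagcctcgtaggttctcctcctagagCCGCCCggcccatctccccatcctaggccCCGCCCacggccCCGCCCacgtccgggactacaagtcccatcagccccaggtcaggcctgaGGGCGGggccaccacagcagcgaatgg
Mlxipl, chr5:135089640-135089889, plus strand: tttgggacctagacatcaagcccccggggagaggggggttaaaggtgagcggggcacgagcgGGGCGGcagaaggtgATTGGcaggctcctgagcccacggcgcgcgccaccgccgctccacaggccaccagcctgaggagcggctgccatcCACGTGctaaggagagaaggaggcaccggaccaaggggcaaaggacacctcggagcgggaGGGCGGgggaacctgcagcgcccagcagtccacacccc
Srebf1, chr11:60210472-60210721, minus strand: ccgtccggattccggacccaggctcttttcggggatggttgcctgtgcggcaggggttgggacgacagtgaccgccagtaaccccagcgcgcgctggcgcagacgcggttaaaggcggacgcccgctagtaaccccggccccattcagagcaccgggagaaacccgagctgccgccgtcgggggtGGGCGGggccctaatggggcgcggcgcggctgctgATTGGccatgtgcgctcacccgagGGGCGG
The Fasn stretch held 3 CCAAT boxes and the Acly stretch 4 GC boxes. The Mlxipl stretch held an E-box 98 to 93 bases before the start, a CCAAT box and 2 GC boxes, and the Srebf1 stretch a CCAAT box and 2 GC boxes. The Srebf1 stretch precedes the most downstream of 3 RefSeq starts, inside the gene, and of the stretches before the other starts, one held 2 GC boxes and one a CCAAT box. The Fasn stretch also lies inside the RefSeq span of its gene. The stretch of Acaca, another gene with a wide range, precedes an internal start and held none of these motifs. Among the 32851 RefSeq stretches of this length, 33.8% held a CCAAT box, 32.7% a GC box and 6.02% an E-box. Over the 13 stretches of the 9 genes, 8 held a CCAAT box, 6 a GC box and 1 an E-box. The sterol response element in the form TCACNCCAC was found in 1.05% of all stretches and in 1 of the 13, which belonged to a downstream start of Mlxipl. These are matches of letters only.

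Acetyl-CoA is supplied to the cytosol by Acly and Acss2. Acly (NM_134037, chr11:100476352-100528000) encodes ATP citrate lyase, which cleaves citrate. It stood at 429.5, 188 and 206 RPKM in WT replicates 10, 11 and 12 and at 497, 232 and 101 RPKM in Ucp1-KO replicates 13, 14 and 15. One culture of each genotype was far above the others, and the lowest of the 6 values was that of Ucp1-KO replicate 15. The means of 274 ± 135 RPKM (SD, n = 3) in WT and 277 ± 202 RPKM (SD, n = 3) in Ucp1-KO cultures were nearly equal. The log2 fold change was -0.17 with a standard error of 0.59, and limma gave an adjusted p of 0.972. The 95% confidence interval on that scale ran from -1.56 to 1.22, so that neither a doubling nor a halving of Acly could be resolved with these cultures.

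Acss2 (NM_019811, chr2:155518043-155562743) encodes the acyl-CoA synthetase that makes acetyl-CoA from acetate in the cytosol and nucleus. Its levels were 235, 179 and 186 RPKM in WT and 201, 199 and 175 RPKM in Ucp1-KO cultures. The 6 cultures lay close together and the genotypes overlapped. The means were 199.8 ± 30.8 and 192 ± 14.2 RPKM (SD, n = 3 each), with a log2 fold change of -0.05 (95% confidence interval -0.36 to 0.26) and an adjusted p of 0.963 by limma. Exons of Acss2 share 395, 335 and 197 of 10163 bases with Gss, Acss2os and Ggt7 on the opposite strand, and reads from these stretches cannot be told apart in a library without strand.

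Malonyl-CoA is made by the acetyl-CoA carboxylases. Acaca (NM_133360, chr11:84129635-84401651) encodes the cytosolic form that feeds fatty acid synthesis. It stood at 41.7, 22.5 and 24.6 RPKM in WT and at 56.4, 32.7 and 15.6 RPKM in Ucp1-KO cultures. As with Acly, replicates 10 and 13 were highest and replicate 15 was lowest. The means were 29.6 ± 10.5 and 34.9 ± 20.5 RPKM (SD, n = 3 each), and the log2 fold change of 0.11 ± 0.45 (SE) had an adjusted p of 0.977 by limma.

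Acacb (NM_133904, chr5:114146321-114250761) encodes the form at the outer mitochondrial membrane, whose malonyl-CoA restrains the entry of fatty acids into mitochondria. It showed 88.1, 54.3 and 64.3 RPKM in WT and 91.0, 73.0 and 76.8 RPKM in Ucp1-KO cultures. Here Ucp1-KO replicate 15 was not low, and only WT replicate 10 kept the genotypes from being separate. The means of 68.9 ± 17.4 and 80.3 ± 9.50 RPKM (SD, n = 3 each) gave a log2 fold change of 0.24 (95% confidence interval -0.20 to 0.68) and an adjusted p of 0.878 by limma.

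Palmitate itself is assembled by Fasn and its NADPH comes in part from Me1. Fasn (NM_007988, chr11:120805958-120825166), the gene of fatty acid synthase, stood at 732, 434 and 466 RPKM in WT and at 1118, 718 and 297 RPKM in Ucp1-KO cultures. The Ucp1-KO values enclosed all WT values on both sides. The means were 544 ± 164 and 711 ± 411 RPKM (SD, n = 3 each). With a log2 fold change of 0.23 ± 0.47 (SE), an interval from -0.90 to 1.35 and an adjusted p of 0.952 by limma, the difference was smaller than the spread between cultures. The lowest Fasn value still rested on 44246 reads and the highest on 179452 reads.

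Me1 (NM_008615, chr9:86581363-86695914) encodes cytosolic malic enzyme, which yields NADPH while turning malate into pyruvate. Its levels were 205, 147 and 152 RPKM in WT and 266, 206 and 135 RPKM in Ucp1-KO cultures. Ucp1-KO cultures again held the highest and the lowest value. The means were 168 ± 32.05 and 202 ± 65.2 RPKM (SD, n = 3 each), with a log2 fold change of 0.23 (95% confidence interval -0.38 to 0.84) and an adjusted p of 0.909 by limma.

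Of the regulators, Srebf1 (NM_011480, chr11:60199084-60224186) encodes SREBP1, the membrane-bound factor that insulin activates. It stood at 125, 104 and 96.0 RPKM in WT and at 133, 105 and 92.6 RPKM in Ucp1-KO cultures. The genotypes covered almost the same range. Its means of 108 ± 15.03 and 110.2 ± 20.7 RPKM (SD, n = 3 each) gave a log2 fold change of 0.02 (95% confidence interval -0.37 to 0.40) and an adjusted p of 0.990 by limma. RPKM of this transcript do not measure how much of the protein is cleaved and active.

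Mlxipl (NM_021455, chr5:135089890-135139768) encodes ChREBP, which responds to glucose metabolites. It was the least abundant of the 9 genes, with 34.8, 11.7 and 15.3 RPKM in WT and 51.4, 19.4 and 22.2 RPKM in Ucp1-KO cultures. The highest culture of each genotype was well over the other two, and the WT culture at 34.8 RPKM lay above 2 of the 3 Ucp1-KO cultures. The means of 20.6 ± 12.4 and 31.0 ± 17.7 RPKM (SD, n = 3 each) differed by a log2 fold change of 0.58 ± 0.48 (SE). This was the largest difference among the 9 genes, but its interval ran from -0.56 to 1.72 and the adjusted p was 0.889 by limma. Exons of Mlxipl share 235 of 5538 bases with Gm43500 on the opposite strand, whose reads cannot be told apart here either. Smaller overlaps were those of Srebf1 with Rai1 (109 of 5634 bases) and Mir6922 (66 bases) and of Me1 with A330041J22Rik (30 of 3848 bases).

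Thrsp (NM_009381, chr7:97412933-97417550), a thyroid hormone responsive gene whose protein promotes fatty acid synthesis, was the most abundant. It stood at 1178, 667 and 784 RPKM in WT and at 1647, 1187 and 902 RPKM in Ucp1-KO cultures. WT replicate 10 fell between the Ucp1-KO values, while WT replicates 11 and 12 were below all of them. The means were 876 ± 267 and 1245 ± 376 RPKM (SD, n = 3 each). The log2 fold change was 0.51 ± 0.28 (SE), the interval ran from -0.17 to 1.18, and limma gave an adjusted p of 0.874, the smallest among the 9 genes. The exact two-sided permutation test gave a p of 0.2 for Thrsp, where 3 against 3 cultures cannot give less than 0.10.

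Across the 9 genes, 0 had an adjusted p under 0.05 between the genotypes. Of the 16865 transcripts tested, 0.0% had one, and the smallest adjusted p was 0.868. Ucp1 itself, the inactivated gene, did not pass this test either. Its log2 fold change was -1.78 ± 0.24 (SE), with an unadjusted p of 0.000157 and an adjusted p of 0.868 by limma, so that the absence of calls among the 9 genes does not show equal expression. At an unadjusted p under 0.05, limma called 0 of the 9 genes, against 5.54% of all transcripts. This count was 2 without WT replicate 10 (Acacb and Thrsp, against 10.4% of all transcripts) and 3 without Ucp1-KO replicate 15 (Fasn, Me1 and Thrsp, against 5.16%). The genotypes did not overlap in 0 of the 9 genes, against 11.2% of all transcripts. Higher means on the log2 scale in Ucp1-KO cultures were found in 7 of the 9 genes, Acly and Acss2 being the exceptions, against 49.6% of all transcripts, and the median log2 fold change was 0.23 against -0.00 over all transcripts. Since single cultures moved the 9 genes together, these directions are not 9 separate observations. The median over the 9 genes was -0.08 without Ucp1-KO replicate 13 and 0.49 without Ucp1-KO replicate 15.

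**Figure D2:**
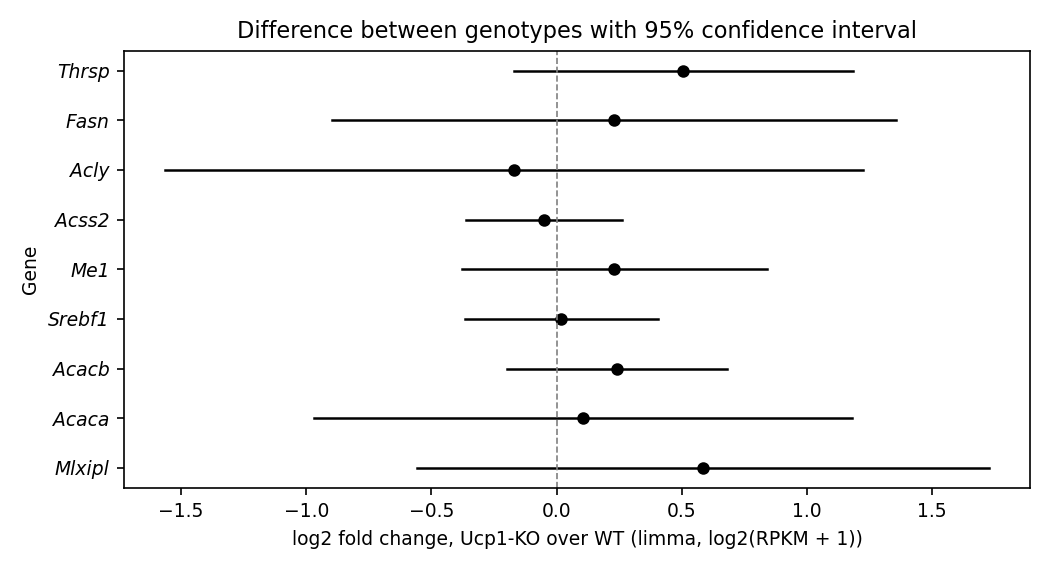
Log2 fold change of Ucp1-KO over WT cultures (points, limma on log2(RPKM + 1), n = 3 each) with its 95% confidence interval (lines) for the 9 lipogenic genes. Each interval includes 0, and those of Acss2 and Srebf1 are the narrowest while those of Acly and Mlxipl are the widest.

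In each of the 9 genes, the highest and the lowest culture of either genotype lay further apart, as a ratio, than the means of the genotypes. Within the Ucp1-KO cultures, the highest value was 4.92 times the lowest for Acly, 3.76 times for Fasn and 3.62 times for Acaca. It was 2.65 times for Mlxipl, 1.96 times for Me1 and 1.83 times for Thrsp, and only 1.44, 1.25 and 1.14 times for Srebf1, Acacb and Acss2. Thus 4 of the 9 genes spanned 2-fold or more, as did 14.3% of all transcripts tested and 6.9% of those with a mean of at least 5 RPKM. A 3-fold range was reached by Acly, Fasn and Acaca, 3 of the 9 genes, against 5.86% of all transcripts and 2.23% of those with a mean of at least 5 RPKM. Among the WT cultures the ranges were 2.98 times for Mlxipl, 2.29 times for Acly and 1.85 times for Acaca, and between 1.30 and 1.76 times for the other 6 genes. Here 2 of the 9 genes spanned 2-fold or more, against 8.99% of all transcripts and 2.92% of those with a mean of at least 5 RPKM. A 3-fold range was reached by 0 of the 9 genes, against 3.18% and 0.717%. The median range of the 9 genes was 1.69 times in WT and 1.96 times in Ucp1-KO cultures, against 1.26 and 1.31 times over all transcripts.

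These counts rested on single cultures. Without WT replicate 10, 0 genes spanned 2-fold in WT cultures, where the share of all transcripts was 2.1%. Without Ucp1-KO replicate 15, Acly and Mlxipl did so in Ucp1-KO cultures, 2 of the 9 genes against 6.97% of all transcripts. The same cultures were high in one gene after another. WT replicate 10 was the highest WT culture in 9 of 9 genes, as in 25.4% of all transcripts, and Ucp1-KO replicate 13 was the highest Ucp1-KO culture in 9 of 9 genes, as in 31.1%. Both held for 15.5% of all transcripts. Of all 6 cultures, Ucp1-KO replicate 13 was highest in 8 genes and WT replicate 10 in Acss2. At the low end, WT replicate 11 was the lowest WT culture in 8 genes, the exception being Srebf1. Ucp1-KO replicate 15 was the lowest Ucp1-KO culture in 7 genes, the exceptions being Acacb and Mlxipl. Both held for 6 of the 9 genes, against 7.41% of all transcripts. The summed brown adipocyte markers ran in the opposite order in the Ucp1-KO cultures, with 1680 RPKM in replicate 13 and 2700 RPKM in replicate 15. Cidea made up most of this difference, with 635.5 RPKM in replicate 13 and 1371 RPKM in replicate 15, and only 1 of the 8 brown markers, Otop1 with 42.6 and 30.5 RPKM, was highest in Ucp1-KO replicate 13. Among WT cultures, 5 of the 8 were highest in replicate 10. The summed adipocyte markers were 32070 and 33730 RPKM in these cultures, of which Fabp4 alone made up 26420 and 29310 RPKM. Taken singly, 6 of the 8 adipocyte markers were highest in WT replicate 10 among WT cultures, 6 in Ucp1-KO replicate 13 among Ucp1-KO cultures and 4 in both, among them Adipoq and Cidec. The summed level of stromal markers, most of it from Col1a1 and Col3a1, was lowest in replicate 10 within WT and in replicate 15 within Ucp1-KO cultures, while single markers such as Pdgfra and Lum had other orders. The part of these markers in the lipogenic levels was not tested.

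**Figure D3:**
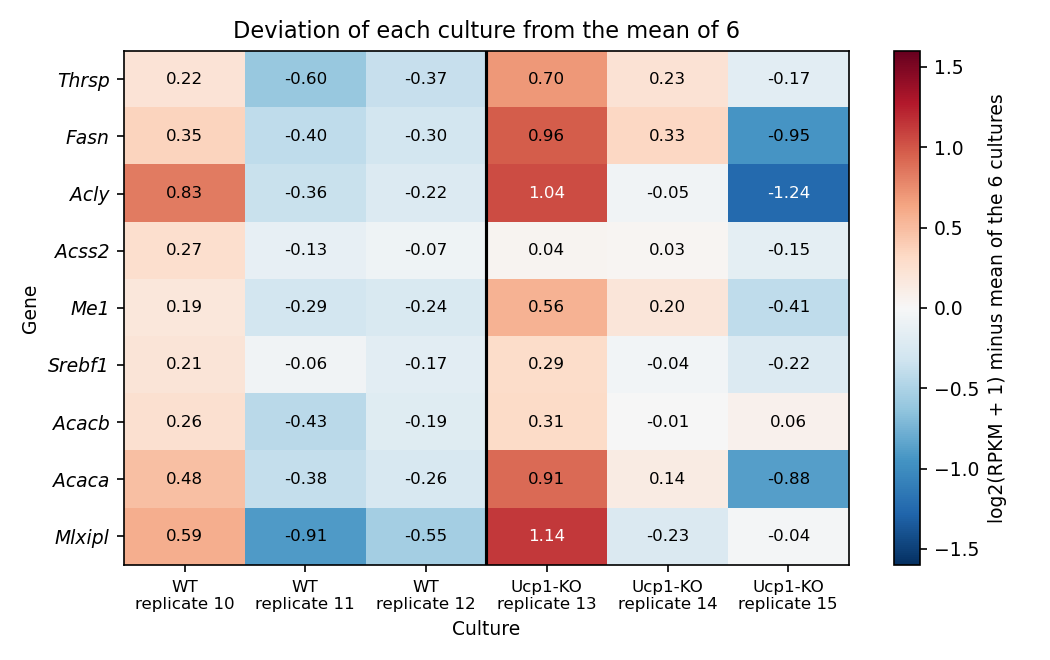
Log2(RPKM + 1) of each culture minus the mean of the 6 cultures for the 9 lipogenic genes (rows) and the 6 cultures (columns), with the value printed in each cell and the black line dividing WT from Ucp1-KO. Ucp1-KO replicate 13 lies above the mean in each gene and reaches 1.14 for Mlxipl, and Ucp1-KO replicate 15 lies lowest for Acly at -1.24.

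Pairs of genes moved to unequal degree, which the ratio of their RPKM within a culture shows. Fasn, the next step after Acaca, was 17.6, 19.3 and 19.0 times Acaca in WT and 19.8, 22.0 and 19.1 times Acaca in Ucp1-KO cultures. This ratio varied little although both genes varied more than 3-fold among the Ucp1-KO cultures. Acly over Acss2, the citrate route over the acetate route, was 1.83, 1.05 and 1.11 in WT and 2.48, 1.16 and 0.576 in Ucp1-KO cultures. Only in Ucp1-KO replicate 15 did the Acly transcript fall below that of Acss2. Acaca over Acacb was 0.473, 0.415 and 0.382 in WT and 0.619, 0.448 and 0.203 in Ucp1-KO cultures, so that the RefSeq transcript of Acacb was the more abundant in every culture. The size of this gap depends on the transcript. Over the transcripts of all annotations, the highest mean was 91.75 RPKM for Acaca and 94.4 RPKM for Acacb.

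The regulators also moved apart. Mlxipl over Srebf1 was 0.278, 0.112 and 0.159 in WT and 0.387, 0.184 and 0.240 in Ucp1-KO cultures, with the highest ratios in replicates 10 and 13. Thrsp over Fasn lay between 1.47 and 1.68 in 5 cultures and reached 3.04 in Ucp1-KO replicate 15. In that culture Fasn was at its lowest while Thrsp, at 902 RPKM, was above 2 of the 3 WT cultures.

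**Figure D4:**
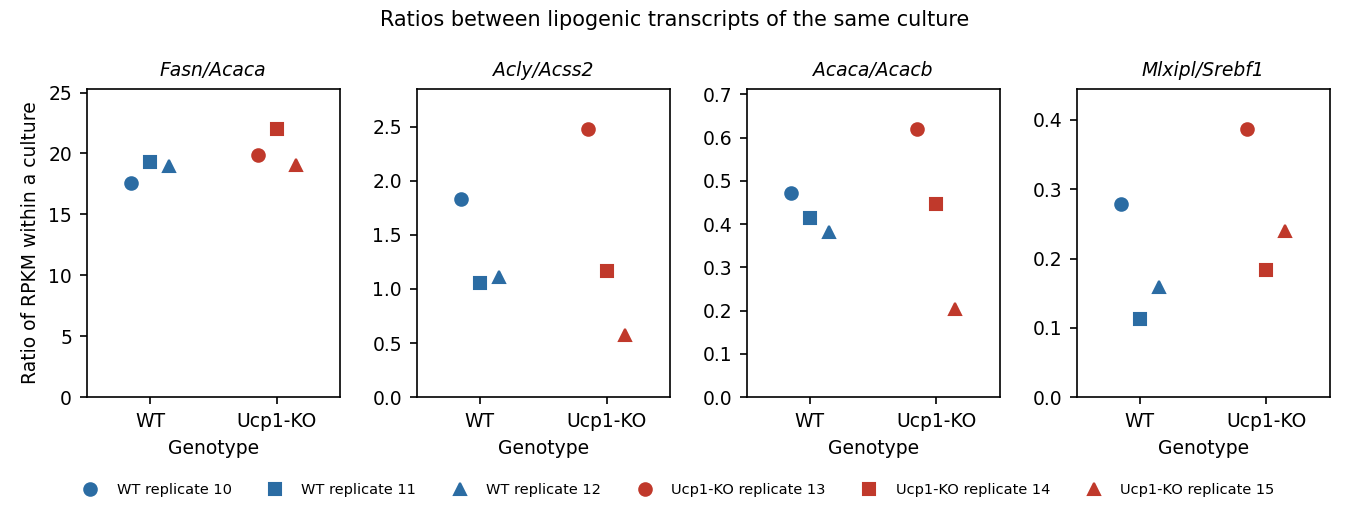
Ratio of RPKM within each culture for Fasn over Acaca, Acly over Acss2, Acaca over Acacb and Mlxipl over Srebf1, with one point per culture by genotype and each vertical axis starting at 0. Fasn over Acaca stays between 17.6 and 22.0, whereas Acly over Acss2 runs from 0.576 to 2.48.

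The likeness of 2 profiles was measured as the root-mean-square distance between log2(RPKM + 1) values over the 6 cultures, each profile centred on its own mean, and is a description with no test. Among the 9 genes, Acaca and Fasn were closest (0.1), followed by Acss2 and Srebf1 (0.124) and by Me1 and Thrsp (0.180). Acly was nearest to Acaca (0.228). The largest distances separated Acly from Acss2 (0.658) and from Acacb (0.657), its neighbours in the handling of acetyl-CoA. This distance also grows with unequal size of the changes, so that a large value need not mean an unlike order of cultures. Over the 6 cultures, Acly had a standard deviation of 0.838 on the log2 scale, against 0.154 for Acss2 and 0.2775 for Acacb.

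Among 7510 other genes with a mean of at least 5 RPKM, Aqp11, which encodes an aquaporin, was nearest to Fasn (0.118) and to Acaca (0.132). Its levels were 21.1, 11.8 and 12.8 RPKM in WT and 38.5, 18.6 and 8.68 RPKM in Ucp1-KO cultures. Mgll, the gene of monoglyceride lipase, came next for both (0.166 and 0.140), with 193, 131 and 117 RPKM in WT and 271, 171 and 96.2 RPKM in Ucp1-KO cultures. S100a4 (0.210), Klf10 (0.222) and Aqp11 (0.284) were the nearest to Acly, and S100a4 (0.148) was the next for Acaca. For Fasn it was Gys2 (0.204), the gene of a glycogen synthase. Me1 was followed most closely by Acsl1 (0.0627), the gene of a long-chain acyl-CoA synthetase, Msrb2 (0.0646) and Cd1d1 (0.0742). Mlxipl had Aspa (0.162), which encodes the enzyme that releases acetate from N-acetylaspartate, Deptor (0.194) and Ptger1 (0.200) as its nearest genes. Thrsp had Nat8l (0.0873), whose enzyme makes N-acetylaspartate, Ehhadh (0.0894) and Prlr (0.0911). Acss2, Acacb and Srebf1 varied by a standard deviation under 0.3 on the log2 scale over the 6 cultures, and no like genes are named for them.

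Further genes of the pathway were examined in 6 lists with 46 genes, of which 45 were tested. With limma 0 of the 45 had an adjusted p under 0.05, and 6 had an unadjusted p under 0.05, against 5.54% of all transcripts. Higher values in Ucp1-KO cultures were found for 25 and lower values for 20, with a median log2 fold change of 0.05. The genotypes did not overlap in 9 genes, against 11.2% of all transcripts. A 2-fold range was found for 6 of the 45 genes among Ucp1-KO cultures, against 14.3% of all transcripts and 6.9% of those with a mean of at least 5 RPKM, and for 1 among WT cultures, against 8.99% and 2.92%. The 6 were Gpd1, Acss1 and Pgd, and, named after their values were seen, Elovl6, Arrdc4 and Mid1ip1, and the 1 in WT was Gpd1.

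Of the ChREBP partners and target genes, 5 of 5 tested were highest in WT replicate 10 among WT and in Ucp1-KO replicate 13 among Ucp1-KO cultures, as were the 9 lipogenic genes. Over all 6 lists this held for 18 of 45 genes, against 15.5% of all transcripts. Gpd1, whose enzyme provides glycerol 3-phosphate, stood at 2187, 953 and 1029 RPKM in WT and at 3067, 1544 and 1041 RPKM in Ucp1-KO cultures, a range of 2.95 times within the latter. Txnip, a classical glucose-induced gene, showed 355, 258 and 282 RPKM in WT and 335, 249.7 and 288 RPKM in Ucp1-KO cultures, and Mlx, the dimer partner of ChREBP, ranged from 19.4 to 29.4 RPKM. Of the 5 genes, 3 were higher and 2 lower in Ucp1-KO cultures, with a median log2 fold change of 0.15, and 0 passed the test. Pklr, the pyruvate kinase gene of liver, was listed at 0 in all 6 cultures.

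Of 11 genes that control SREBP1, 4 were higher and 7 lower in Ucp1-KO cultures, with a median log2 fold change of -0.03. Insig1, which holds SREBP in the endoplasmic reticulum and is itself a target of SREBP, lay between 153 and 177 RPKM in the 6 cultures. Nr1h3, the gene of liver X receptor alpha, lay between 33.6 and 47.1 RPKM, and Nr1h2, that of liver X receptor beta, between 26.1 and 29.4 RPKM. Srebf2, Mbtps1 and Usf1, 3 of the 11, had genotypes without overlap, against 11.2% of all transcripts. Srebf2, which encodes the factor of cholesterol synthesis, was at 16.9, 16.8 and 16.5 RPKM in WT and at 14.3, 13.1 and 13.8 RPKM in Ucp1-KO cultures. Its log2 fold change of -0.27 had an unadjusted p of 0.0133 and an adjusted p of 0.868 by limma. Mbtps1, the gene of a protease that cleaves SREBP, and Usf1, that of an E-box factor, had log2 fold changes of -0.12 and -0.26.

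Enzymes and carriers of citrate, acetyl-CoA and malonyl-CoA numbered 7, with 4 higher and 3 lower values in Ucp1-KO cultures and a median log2 fold change of 0.06. Their most abundant members did not share the wide range of Acly. Cs, citrate synthase, lay between 613 and 723 RPKM, Pcx, pyruvate carboxylase, between 219.7 and 307 RPKM, and Slc25a1, the citrate carrier, between 191 and 246 RPKM. Acss1, the mitochondrial counterpart of Acss2, was at 2.43, 2.57 and 3.14 RPKM in WT and at 3.24, 6.57 and 8.45 RPKM in Ucp1-KO cultures. It was the only gene of the list whose genotypes did not overlap, and its log2 fold change of 0.86 had an unadjusted p of 0.02 and an adjusted p of 0.868 by limma.

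Among 5 other genes of NADPH supply, 3 were higher and 2 lower in Ucp1-KO cultures, with a median log2 fold change of 0.06. G6pdx, the entry enzyme of the pentose phosphate pathway, stood at 191, 186 and 192 RPKM in WT and at 229, 255 and 205 RPKM in Ucp1-KO cultures. The genotypes of G6pdx did not overlap, and the log2 fold change of 0.27 had an unadjusted p of 0.0362 and an adjusted p of 0.868 by limma. Pgd, the next oxidative enzyme of that pathway, was at 239.5, 182 and 177 RPKM in WT and at 301, 205 and 141 RPKM in Ucp1-KO cultures, with the same highest and lowest cultures as Fasn over all 6. Idh1, cytosolic isocitrate dehydrogenase, lay between 252 and 289.8 RPKM.

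Genes that use newly made palmitate numbered 5, with 2 higher and 3 lower values in Ucp1-KO cultures and a median log2 fold change of -0.18. The stearoyl-CoA desaturases did not overlap between genotypes. Scd1 stood at 11290, 9977 and 9446 RPKM in WT and at 8476, 8612 and 6632 RPKM in Ucp1-KO cultures, with a log2 fold change of -0.38 and an adjusted p of 0.871 by limma. Scd2 stood at 674, 652 and 657 RPKM in WT and at 456, 511 and 473 RPKM in Ucp1-KO cultures, with a log2 fold change of -0.46, an unadjusted p of 0.00218 and an adjusted p of 0.868 by limma. Both lay lower in Ucp1-KO cultures without passing the test, whereas Fasn had a higher mean there. Gpam, the first acyltransferase of glycerolipid synthesis, lay between 80.3 and 146 RPKM.

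Of 12 genes of insulin signalling, glucose entry and AMP kinase, 9 were higher and 3 lower in Ucp1-KO cultures, with a median log2 fold change of 0.07. Slc2a4, the insulin-regulated glucose transporter, lay between 81.6 and 124 RPKM, Akt2 between 40.9 and 47.5 RPKM, and Hk2, hexokinase of insulin-sensitive tissues, between 26.8 and 37.8 RPKM. The insulin receptor substrate genes Irs1 and Irs2 did not overlap between genotypes. Irs1 was at 7.61, 6.19 and 8.03 RPKM in WT and at 9.24, 10.2 and 11.1 RPKM in Ucp1-KO cultures, with a log2 fold change of 0.44, an unadjusted p of 0.00958 and an adjusted p of 0.868 by limma. Irs2 was at 4.90, 4.46 and 4.38 RPKM in WT and at 6.22, 5.90 and 6.08 RPKM in Ucp1-KO cultures, with a log2 fold change of 0.34, an unadjusted p of 0.00817 and an adjusted p of 0.868 by limma.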

How the data were processed

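RNA sequencing measured transcript abundance in 3 WT and 3 Ucp1-KO cultures, grouped by their labels. The libraries were unstranded and the reads single, of 50 bases. The deposited RPKM were made by the authors with Genomatix software from uniquely placed reads on mouse build 38. The 28890 RefSeq transcripts of the table were used. Because the deposited values were RPKM and not counts, the 16865 transcripts (12259 genes) whose mean reached 0.5 RPKM entered a limma fit (version 3.58.1, R version 4.3.3) of log2(RPKM + 1) on genotype alone, in which empirical Bayes moderation followed the intensity trend. Fold changes are on this scale, which understates the change of low genes. Adjustment over all transcripts followed Benjamini and Hochberg, with a threshold of 0.05 for the adjusted p. Exact two-sided permutation tests on the RPKM of single genes stood beside the fit. The fit was tested on simulated data. Library totals were computed from the RPKM steps. The length of each transcript was taken as the smallest that gave whole reads in all 6 cultures. Such a length was found for 100.0% of the transcripts tested, within 0.02 reads plus an allowance for rounding. The small number of cultures limited precision more than depth did.

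The 9 genes, the pathway lists and the marker lists were chosen with earlier results of these data known. Named from each pathway list were up to 3 genes with the highest mean, genes with an adjusted p under 0.05 and genes whose genotypes did not overlap. Named as like genes were the 3 nearest for each of the 9 with a standard deviation of at least 0.3. Adgre1 was matched to its older symbol Emr1. Gene coordinates are from RefSeq on GRCm38.p6, and exon overlaps from GENCODE M21. The coordinates printed for the 9 genes are spans of the whole gene and can differ from those of the transcript named beside them. Alternatives were a constant of 0.1 RPKM, no minimum or one of 5 RPKM, median-of-ratios scaling, 1 transcript per gene, limma without trend, limma-voom on the recovered reads and leaving out each culture. The transcripts of all annotations, and the ranges without each culture, were added after seeing the data. Other calculations and the plots were made in Python 3.11.15 (scipy 1.17.1, numpy 2.4.6, matplotlib 3.10.9 and pandas 2.3.3).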

Additional observations from a re-analysis of the deposited data

How the results depend on the processing

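With 3 cultures per genotype, single cultures set the direction of several differences. Leaving out each culture in turn, the log2 fold change (Ucp1-KO over WT) ran from -0.73 to 0.41 for Acly, from -0.12 to 0.072 for Acss2, from -0.32 to 0.57 for Acaca, from -0.20 to 0.76 for Fasn and from -0.12 to 0.14 for Srebf1, so that these 5 genes changed sign. It stayed above 0 for Acacb (0.09 to 0.43), Me1 (0.01 to 0.49), Mlxipl (0.16 to 1.02) and Thrsp (0.28 to 0.74). Acly also changed sign as a ratio of mean RPKM, at 0.0114 on the log2 scale. The median over the 9 genes ran from -0.08 to 0.49 and that over the pathway lists from -0.0203 to 0.0599. The number of the 9 genes with a 2-fold range ran from 0 to 2 in WT and from 2 to 4 in Ucp1-KO cultures, and was 3 and 5 with median-of-ratios scaling. Without WT replicate 10, Acacb (0.43, unadjusted p 0.0215) and Thrsp (0.74, unadjusted p 0.0336) had adjusted p of 0.433 and 0.456 by limma. Without Ucp1-KO replicate 15, Fasn (0.76), Me1 (0.49) and Thrsp (0.72) had unadjusted p of 0.0413, 0.0412 and 0.0424 and an adjusted p of 0.838 by limma. In no alternative did any of the 9 genes, or any RefSeq transcript tested, have an adjusted p under 0.05 by limma. The paper's own count-based comparison of the genotypes did call Ucp1 and a short list of other genes, with none of the 9 in it. The number of transcripts with an unadjusted p under 0.05 was 935, 543 with a minimum of 5 RPKM, and 317 to 1754 when a culture was left out. Over the transcripts of all annotations, which were compared without a test, the log2 fold change ran from -0.02 to 0.32 for Acaca, from -0.07 to 0.13 for Acss2 and from -0.03 to 0.11 for Srebf1, and kept its sign for the other 6 genes. No paired analysis was run, because WT and Ucp1-KO cultures carry different replicate numbers, from which a pairing cannot be told.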
